A study of Mus musculus with 42 samples.

Results

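The enzymes that build fatty acids from acetyl-CoA were followed through visceral fat stromal cells, cultures grown from them, floating fat cells and regulatory T (Treg) cells of the mouse. The set has 10 members, taken by gene symbol from a table of 55011 genes: Acly, Acss2, Me1, Acaca, Acacb, Fasn, Elovl6, Scd1, Scd2 and Fads2. All 10 were present in the table. The question was how strongly each enzyme gene was expressed in each of 15 groups, and how it changed with adipogenic culture, with Treg, with the cytokine oncostatin M (OSM) and with loss of Treg cells.

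RNA of 42 libraries was sequenced, all from visceral adipose tissue (VAT) or from cells grown out of it. VmSC4 and VmSC5 are the labels of 2 stromal cell populations of mice with the genotype Pparg-Tdt. Each was sequenced fresh (3 libraries each) and after 8 days of adipogenic differentiation in culture (3 libraries each). Cells of both were also put into recipient mice by adoptive transfer. Transferred VmSC4 were recovered either as VmSC4 (called VmSC4-derived VmSC4, 3 libraries) or as VmSC5 (called VmSC4-derived VmSC5, 3 libraries), and transferred VmSC5 as VmSC5 (VmSC5-derived VmSC5, 2 libraries). VmSC5 in adipogenic differentiation were further grown in a pair of experiments, 1 with Treg against none and 1 with OSM (10 ng/mL) against PBS, with 3 libraries in each of these 4 groups, all of the genotype Pparg-Tdt. For the first pair the titles say only with or without Treg, whereas the series text speaks of medium conditioned by VAT Treg cells. Floating cells labelled adipocyte came from Pparg-Tdt:Foxp3-DTR+ mice and from Pparg-Tdt:Foxp3-DTR- mice (n = 2 each). Both of these groups had received diphtheria toxin, which depletes Foxp3-expressing cells in DTR+ mice. The Treg cells were labelled OSM+/+ (wild type, WT) and OSMf/f (knockout, KO; n = 3 each). The Cre line, the day of the Treg and OSM cultures, and the age of the mice are not given in the sources used here. The labels do not say which libraries came from separate animals or cultures, so each p-value measures the spread between these libraries, which may be technical.

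Fatty acid synthesis starts in the cytosol with acetyl-CoA, which Acly (ATP citrate lyase) makes from citrate and Acss2 (acetyl-CoA synthetase) makes from acetate. Acaca and Acacb encode the acetyl-CoA carboxylases that make malonyl-CoA, Acaca for chain building and Acacb at the mitochondrial surface, where malonyl-CoA restrains fatty acid oxidation. Fasn (fatty acid synthase) builds palmitate with NADPH, part of which comes from Me1 (malic enzyme). Elovl6 then lengthens palmitate, Scd1 and Scd2 (stearoyl-CoA desaturases) introduce a double bond, and Fads2 (a desaturase of polyunsaturated chains) acts mainly on dietary fatty acids. In fat cells the pathway is known to be driven by insulin and glucose through the transcription factors encoded by Srebf1 and Mlxipl.

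In GENCODE M21 on GRCm38, Acly lies at chr11:100476353-100528000 (minus strand), Fasn at chr11:120805846-120824547 (minus) and Acaca at chr11:84129672-84401651 (plus). Scd1 (chr19:44394455-44407879, minus) and Scd2 (chr19:44293674-44306864, plus) are neighbours, and Fads2 is at chr19:10062765-10101746 (minus). The others are Acacb (chr5:114146535-114250761, plus), Elovl6 (chr3:129532355-129638495, plus), Me1 (chr9:86581371-86695953, minus) and Acss2 (chr2:155517948-155585724, plus). Acss2 overlaps Ggt7, Gss and Acss2os on the opposite strand. Me1, Elovl6, Acaca and Acacb each overlap 1 opposite-strand gene (A330041J22Rik, Gm35986, Gm11437 and Gm13784). The strand setting of the counting is not given in the sources used here, so reads from overlapping partners cannot be told apart.

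The promoters of Fasn, Acly and Acss2 are shown because these 3 genes fell in the cultures with Treg, whereas with OSM Fasn and Acss2 fell and Acly did not pass the test. Each runs 5′ to 3′ from 250 bases before to 50 bases after the RefSeq transcription start (GRCm38.p6). Capitals mark matches to the CCAAT box (CCAAT) or the GC box (GGGCGG) on either strand. The windows are chr11:120824498-120824797 (minus strand), chr11:100527951-100528250 (minus) and chr2:155517793-155518092 (plus).
Fasn promoter: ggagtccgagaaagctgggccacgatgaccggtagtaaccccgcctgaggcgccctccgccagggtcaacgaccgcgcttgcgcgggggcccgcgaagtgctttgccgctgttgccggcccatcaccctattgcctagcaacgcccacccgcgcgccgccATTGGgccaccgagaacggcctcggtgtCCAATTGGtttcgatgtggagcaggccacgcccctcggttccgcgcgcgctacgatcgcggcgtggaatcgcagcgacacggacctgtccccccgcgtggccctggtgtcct
Acly promoter: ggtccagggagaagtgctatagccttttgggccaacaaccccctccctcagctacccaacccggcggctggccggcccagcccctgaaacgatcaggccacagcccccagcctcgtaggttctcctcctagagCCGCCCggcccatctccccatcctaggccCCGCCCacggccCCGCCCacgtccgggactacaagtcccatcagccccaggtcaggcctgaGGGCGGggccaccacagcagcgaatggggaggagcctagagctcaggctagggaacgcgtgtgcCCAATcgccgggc
Acss2 promoter: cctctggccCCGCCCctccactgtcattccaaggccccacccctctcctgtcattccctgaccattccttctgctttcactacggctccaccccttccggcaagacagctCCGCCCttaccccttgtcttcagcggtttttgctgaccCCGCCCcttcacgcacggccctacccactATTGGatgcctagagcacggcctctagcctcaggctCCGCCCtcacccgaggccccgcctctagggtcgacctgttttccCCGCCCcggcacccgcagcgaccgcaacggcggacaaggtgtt
The Fasn window held 3 CCAAT matches, of which 1 pair overlaps on opposite strands. Acly had 1 CCAAT match and 4 GC boxes, and Acss2 had 1 CCAAT match and 5 GC boxes. In RefSeq 8 members had 9 windows between them (Me1 had 2), and Scd1 and Scd2 were not matched. Of the 9, 3 (those of Acaca and Acacb and 1 of Me1) lie wholly inside the gene as GENCODE draws it, at a start downstream of its first. CCAAT was found in 5 of the 9, against 37.4% of 32851 promoters of the same length, and the GC box in 4 of the 9, against 35.7%. In the 6 windows that do not lie inside the gene, CCAAT was found in 3 and the GC box in 4. The E-box CACGTG (7.15% of all promoters) and the sterol regulatory element TCACNCCAC (1.24%) were in 0 of the 9, which says only that these letters are not in these windows.

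Total counts ran from 1072147 per library in the OSM cultures to 12514783 in fresh VmSC4. Levels are given in CPM, counts per 1000000 of the library's total. Defining markers of the labelled cells were present: 5 stromal markers summed to 28919 to 55053 CPM in fresh and transferred cells, 6 adipocyte markers to 23321 to 41251 CPM in floating cells, and 5 T cell markers to 2614 to 3365 CPM in Treg cells. In the cultures with Treg, Cd3e, Cd3g, Cd4 and Foxp3 were at 0. All 5 T cell markers summed there to 0.556 to 0.975 CPM, beside 0.43 to 0.695 CPM without Treg. Libraries of 1 group differed by more than sampling noise in every pair, so each was counted by itself.

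The 10 genes together took 0.076% to 0.113% of all counts in fresh and transferred stromal cells and 0.068% to 0.0769% in Treg cells. The share was 2.07% to 2.3% after 8 days of adipogenic culture, 3.05% to 3.12% in cultures without Treg, and 1.37% to 2.55% in floating cells. It was 1.24% to 1.36% with Treg, 0.973% to 1.18% with PBS and 0.268% to 0.34% with OSM. Adipogenic cultures and floating cells thus stood above fresh cells, and the OSM cultures lay between the others and fresh cells.

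Counted per kilobase of exon, so that genes can be set against each other, Scd1 was the most abundant of the 10 in all 8 groups of cultures and floating cells. It reached 3474 CPM per kb without Treg, 3143 in floating DTR- cells and 403 with OSM. Acly was the most abundant in the 7 groups of fresh, transferred and Treg cells, at 60.6 to 97.0 CPM per kb. Behind Acly, Fads2 came second in the fresh and transferred stromal cells (23.9 to 54.5 CPM per kb), and Fasn or Acss2 in Treg cells. Elovl6 was the lowest of the 10 in the cultures of both populations and in the cultures with and without Treg.

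Across groups, Scd1 spanned the widest range of levels, from a mean of 1.15 CPM in WT Treg cells to 16993 CPM in cultures without Treg. Me1 spanned 0.649 CPM in WT Treg cells to 2837 CPM in cultured VmSC4. Fasn was highest in floating DTR+ cells (7403 CPM) and lowest in KO Treg cells (73.0 CPM). Acly had its lowest group mean in fresh VmSC4, still 320 CPM, and was highest without Treg (4083 CPM). Elovl6, by contrast, stayed between 10.3 CPM in VmSC4-derived VmSC4 and 96.2 CPM in floating DTR+ cells. Fads2 was highest in fresh VmSC5 (179 CPM) and lowest in KO Treg cells (0.737 CPM).

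Many neighbours in these orders did not differ beyond their spread. With the 15 groups of a gene placed in order of their mean, the library ranges overlapped in 11 of the 14 neighbouring pairs for Elovl6, in 10 for Acaca and for Acly, and in 9 for Acacb and for Acss2. They overlapped in 8 for Scd2 and for Fads2, 7 for Fasn, 5 for Me1 and 4 for Scd1. For Scd1 the top 6 groups, from cultures without Treg to cultures with Treg, were separate from each other.

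**Figure D1:**
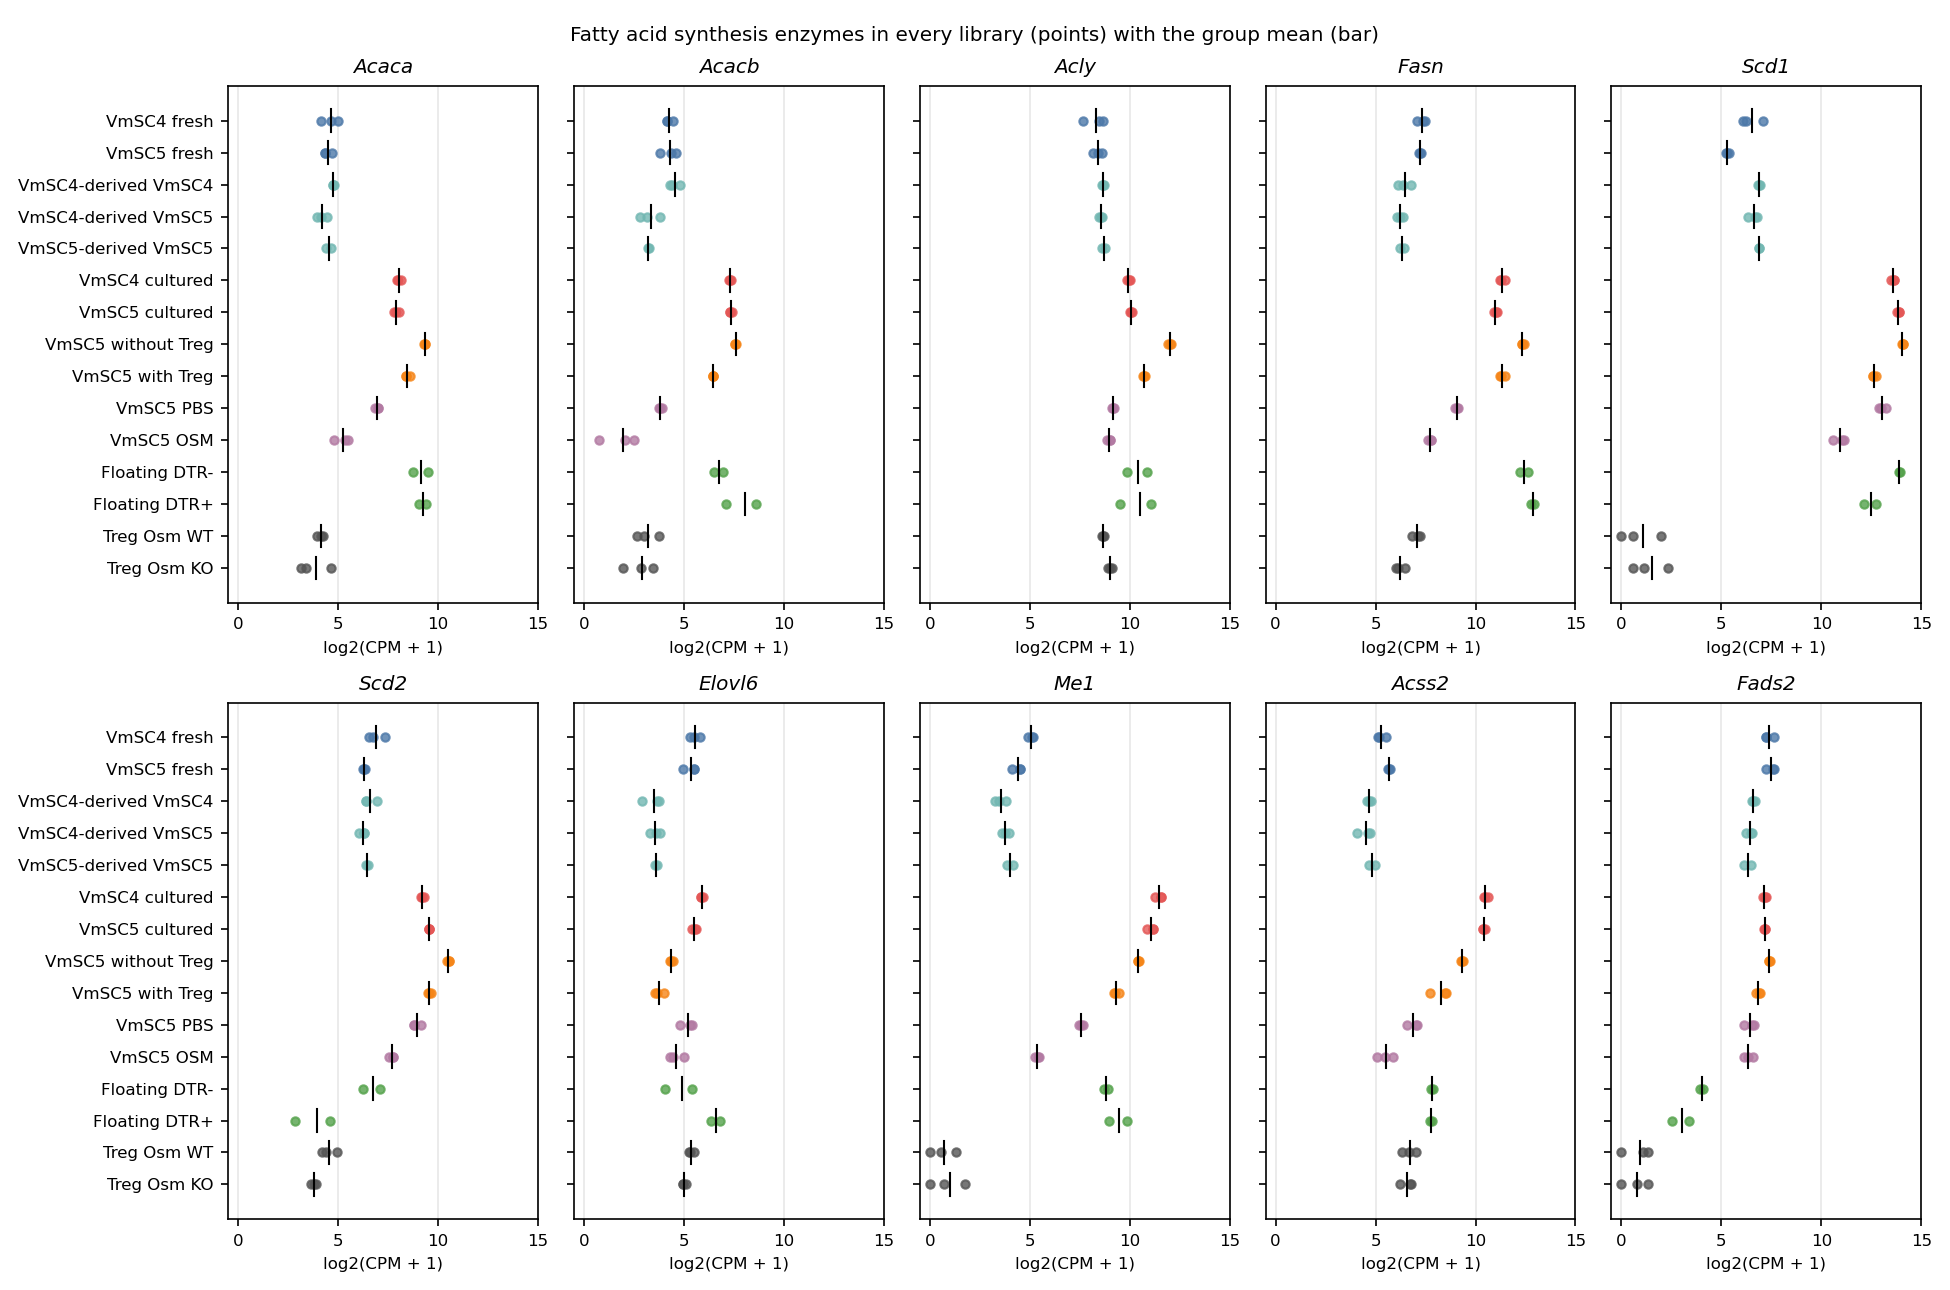
Level of each of the 10 genes in every library (points) with the group mean (bar), as log2(CPM + 1), by group. Scd1, Fasn and Me1 are higher in floating cells and in most cultures than in fresh cells, with Me1 and Fasn near the fresh level in the OSM cultures, whereas Elovl6 and Fads2 keep a narrower range among the stromal groups.

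Members that act at the same step differed in proportion between groups. Per kilobase of exon, Scd1 made up 45.4% ± 12.3 (SD, n = 3) of Scd1 plus Scd2 in fresh VmSC4 and 35.4% ± 1.28 (SD, n = 3) in fresh VmSC5, and 57.9% to 60.3% (group means) after transfer. After adipogenic culture it was 95.8% ± 0.154 (SD, n = 3) and 95.7% ± 0.134 (SD, n = 3), and in floating cells 99.4% and 99.7% (n = 2 each). In Treg cells it was 5.91% ± 8.67 (SD, n = 3) and 13.7% ± 12.9 (SD, n = 3), where Scd1 had 15 counts in all in WT and 12 in KO. Scd1 and Scd2 share 4.66% and 3.79% of their 50-base windows with other Scd genes. Where Scd1 was far above Scd2, as in cultured VmSC4 (12291 against 595 CPM), a small part of its reads could weigh on Scd2. This was not tested.

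The share of Scd1 was lower with Treg (90.3% to 90.6%) than without (92.7% to 93.1%), and lower with OSM (88.9% to 92.6%) than with PBS (94.9% to 95.3%), with no overlap of libraries in either pair. Acaca made up 42.0% ± 4.98 (SD, n = 3) of Acaca plus Acacb in fresh VmSC4 and 48.3% ± 2.61 (SD, n = 3) after culture. It made up 65.5% without Treg in all 3 libraries and 68.4% to 71.3% with Treg. With PBS it made up 83.5% to 84.9%, and with OSM 82.3% to 97.4%, where Acacb had only 1 to 5 counts in a library. Acaca and Acacb share no 50-base window. These shares rest on the length used. Per kilobase of all annotated exons, Acaca was above 50% in 10 of 15 groups, and per kilobase of the longest transcript, or without a correction for length, in all 15. By the longest transcript its share was 54.2% ± 5.14 (SD, n = 3) in fresh VmSC4 and 60.4% ± 2.51 (SD, n = 3) after culture.

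**Figure D2:**
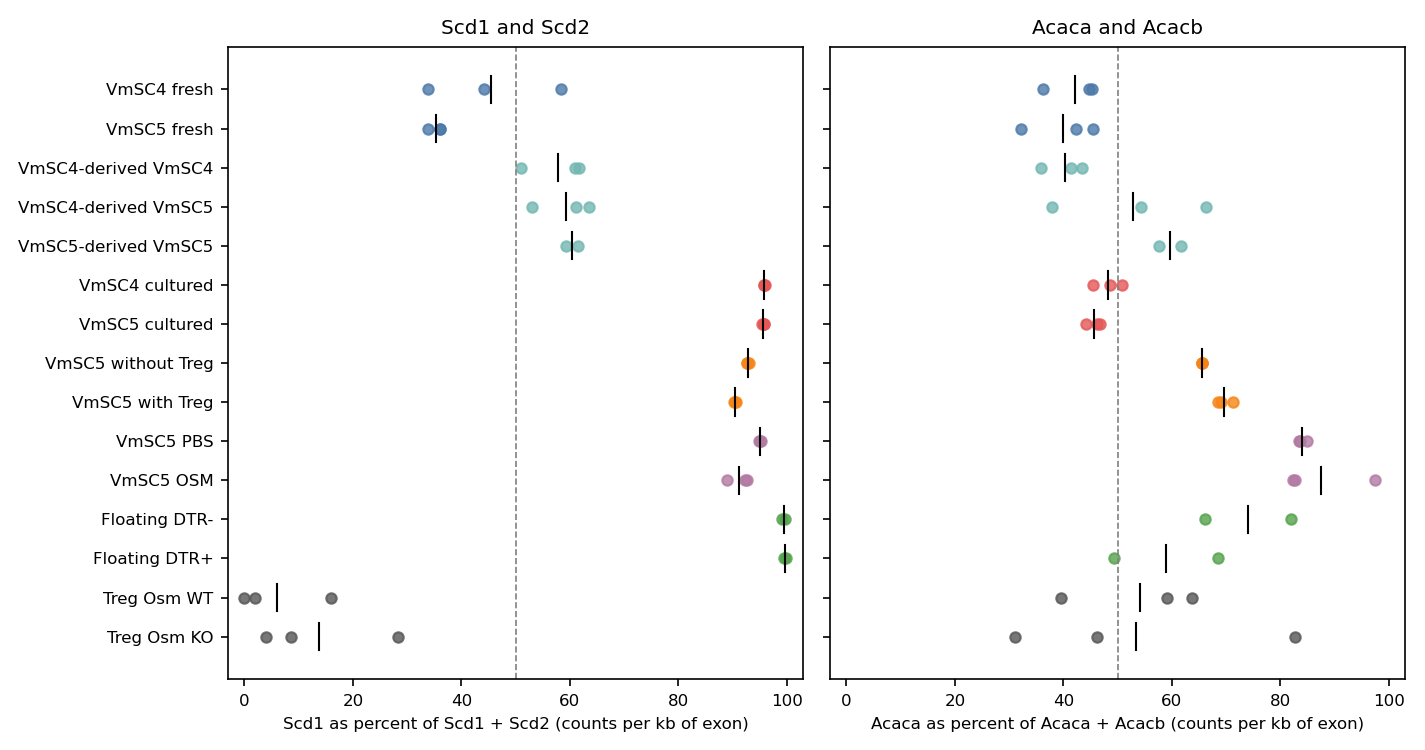
Scd1 as a percent of Scd1 + Scd2 (left) and Acaca as a percent of Acaca + Acacb (right), from counts per kilobase of exon, in every library (points) with the group mean (bar); the dashed line marks 50%. Scd1 is above 88% in all cultures and floating cells and below 30% in all Treg cell libraries.

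As a description over the 15 group means, log2(CPM + 1) of Acaca and Fasn ran together most closely (Pearson r = 0.99), and that of Scd1 and Me1 at r = 0.95. Elovl6 and Fads2 had r = -0.28 with each other. With the other members Elovl6 ranged from -0.19 (Scd2) to 0.46 (Acss2), and Fads2 from 0.06 (Acss2) to 0.76 (Scd2). Among 10589 genes that reached 20 CPM in a group, those closest to the mean profile of the 10 were Pex19 (r = 0.989), Romo1 (0.983), Pxmp4 (0.981), Ndufa4 (0.980) and Coq7 (0.980). Preparation and depth differ among the groups, so these values describe the 15 groups and no more.

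Nearly the whole pathway was higher after adipogenic culture than in fresh cells, in both populations. Against fresh cells, Scd1 was 195-fold higher in VmSC4 and 519-fold in VmSC5, Me1 126-fold and 144-fold, Acss2 55.3-fold and 36.3-fold, and Fasn 23.6-fold and 18.6-fold. Both carboxylases rose over 11-fold, Acly about 4-fold, and Elovl6 less than 2-fold. In VmSC4 all 10 members passed as higher (31.9% of all genes tested were higher, 70.4% changed), and in VmSC5 9 of 10 did (33.4% higher, 71.0% changed). The median log2 change of the 10 was 3.82 in VmSC4 and 3.81 in VmSC5, beside -0.23 and -0.18 over all genes tested. In whole cultures, fewer cells of a type and less RNA per cell cannot be told apart.

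For acetyl-CoA supply, Acly had 407, 200 and 353 CPM in fresh VmSC4 and 926, 993 and 1017 CPM after culture. In VmSC5 it went from 339, 388 and 289 CPM to 1044, 1110 and 1057 CPM. Every cultured library lay above every fresh one, and the log2 changes were 2.15 ± 0.20 (SE, adjusted p = 1.37e-07, edgeR's quasi-likelihood test) and 2.09 ± 0.20 (adjusted p = 1.78e-07). Acss2 started far lower, at 34.1 to 52.1 CPM in the 6 fresh libraries, and reached 1318 to 1560 CPM in the 6 cultured ones. Its log2 changes were 5.79 ± 0.14 (SE, adjusted p = 4.87e-22) and 5.18 ± 0.14 (adjusted p = 2.08e-21).

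Me1 had 34.1, 34.6 and 29.2 CPM in fresh VmSC4 and 2434, 3035 and 3041 CPM after culture. Its log2 change of 6.98 ± 0.16 (SE, adjusted p = 1.63e-22) had the smallest adjusted p of the 10 in VmSC4, and in VmSC5 it was 7.17 ± 0.16. Acaca went from 16.8 to 30.9 CPM in the 6 fresh libraries to 219 to 283 CPM, and Acacb from 12.9 to 23.3 CPM to 153 to 171 CPM. The log2 changes of Acaca were 3.99 and 3.94 and those of Acacb 3.65 and 3.55, with SE of 0.17 to 0.18. Fasn had 177, 166 and 133 CPM in fresh VmSC4 and 2389, 2843 and 2475 CPM after culture, and 143, 147 and 151 CPM in fresh VmSC5 and 2051, 2147 and 1936 CPM after culture. No fresh library of these 4 genes came near a cultured one.

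Among the chain-modifying enzymes, Scd1 had 135, 73.0 and 65.5 CPM in fresh VmSC4 and 12696, 11267 and 12912 CPM after culture. In VmSC5 it went from 37.5, 36.1 and 40.3 CPM to 14893, 14279 and 15086 CPM. These are log2 changes of 7.61 ± 0.26 (SE, adjusted p = 5.67e-13) and 9.02 ± 0.28 (adjusted p = 1.38e-13). Scd2 rose less, by 2.85 ± 0.15 and 3.69 ± 0.15 (SE) on the log2 scale.

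Elovl6 and Fads2 were the exceptions. Elovl6 had 38.9, 54.5 and 44.7 CPM in fresh VmSC4 and 60.8, 56.8 and 57.3 CPM after culture, with log2 changes of 0.88 ± 0.17 (SE, adjusted p = 4.29e-05) and, in VmSC5, 0.60 ± 0.17 (adjusted p = 0.00293). Fads2 had 148, 147 and 200 CPM in fresh VmSC4 and 147, 142 and 135 CPM after culture, so the libraries overlapped. Its log2 value was 0.32 ± 0.13 (SE, adjusted p = 0.0378) in VmSC4 and 0.11 ± 0.13 (adjusted p = 0.472) in VmSC5. These small values depended on the scaling: TMM factors centre the bulk of genes, and with library totals alone the median of all genes moved to -0.78 in VmSC4 and -0.61 in VmSC5. On that scale Fads2 turned to -0.23 (adjusted p = 0.129) and -0.32 (adjusted p = 0.0355), and Elovl6 no longer passed (0.34 and 0.17, adjusted p = 0.076 and 0.374). The Fads2 call in VmSC4 was also lost without a low-count filter (0.527), with the 2 groups alone (0.0516) and without either fresh VmSC4 replicate 1 or 2 or any of the 3 cultured VmSC4 libraries (0.0584 to 0.145).

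**Figure D3:**
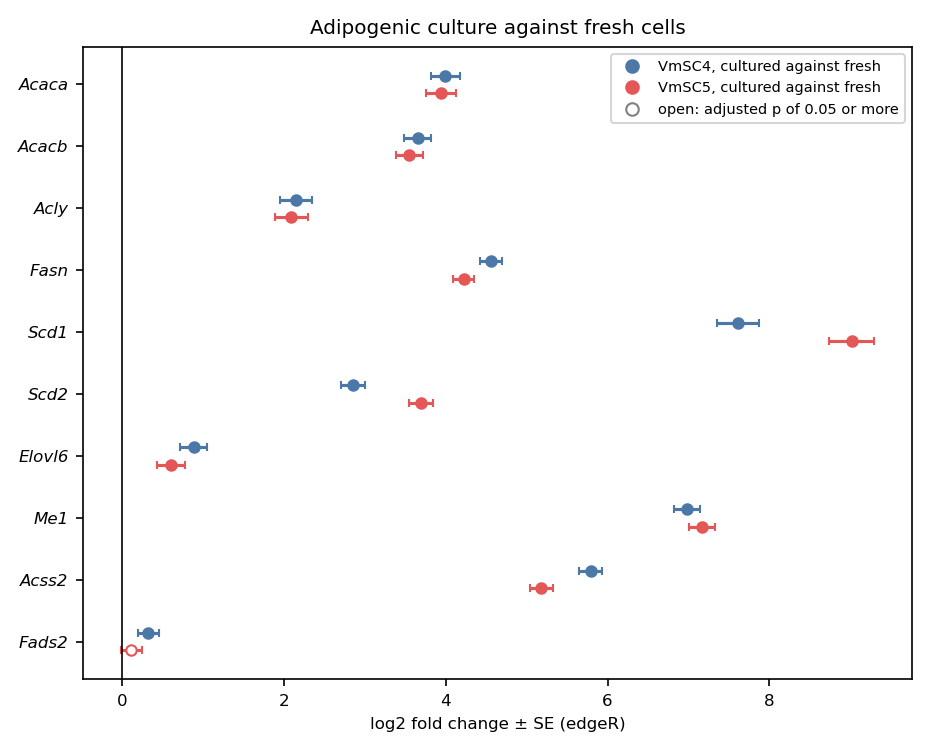
Log2 fold change of each enzyme gene in cultured against fresh cells (x axis) for VmSC4 and VmSC5, with bars of 1 SE from edgeR; open symbols mark an adjusted p of 0.05 or more. Scd1 lies furthest out in VmSC5 at 9.02, and Fads2 and Elovl6 lie closest to 0 in both populations.

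Genes around the pathway moved in the same comparison. Of 14 genes of substrate supply, 13 rose and 0 fell in each population, among them Slc25a1, the mitochondrial citrate carrier (log2 change 4.55 ± 0.12, SE, in VmSC4 and 4.38 ± 0.12 in VmSC5), and Pgd of the pentose phosphate pathway (4.40 and 4.20). Of 15 regulators, 10 rose and 2 fell in VmSC4, and 9 rose and 3 fell in VmSC5. Thrsp, a lipogenic nuclear protein, rose by 9.67 ± 0.22 and 10.11 ± 0.24, Srebf1 by 1.78 ± 0.13 and 1.56 ± 0.13, and Mbtps1, a protease that activates SREBP, fell (-2.49 ± 0.15 and -2.64 ± 0.15). All 6 tested genes of mitochondrial fatty acid synthesis rose in both, led by Ndufab1, the mitochondrial acyl carrier protein (4.15 and 4.46).

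All 12 genes of the adipocyte program rose in both populations, with medians of 6.43 and 6.80. The adipocyte markers summed to 77.2 to 153 CPM in fresh cells and 28726 to 31407 CPM after culture, while stromal markers went from 28919 to 37533 CPM down to 826 to 1326 CPM. Counts of mitochondrial genes were 0.0722% to 0.423% of a fresh library and 6.05% to 7.26% of a cultured one. Fresh libraries were sorted cells and cultured ones lysed wells of lower depth, so culture and preparation cannot be told apart.

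Between cultured VmSC5 and cultured VmSC4 none of the 10 enzymes passed the test (0.340% of all genes did), and their log2 differences ran from -0.43 to 0.29. With edgeR 4 of the 10 had an unadjusted p under 0.05, a cut-off for which the share of all genes is not given here. DESeq2 called 0. Me1 had 2434, 3035 and 3041 CPM in cultured VmSC4 and 1873, 2262 and 2321 CPM in cultured VmSC5, a log2 difference of -0.43 ± 0.12 (SE, adjusted p = 0.188). Fasn had -0.36 ± 0.12 (adjusted p = 0.31) and Scd2 0.29 ± 0.14 (adjusted p = 0.621). In a fit of these 2 groups alone all 3 passed (adjusted p = 0.0203, 0.0169 and 0.0216), in which no fresh library enters the spread. Of the adipocyte program 1 of 12 genes, Dgat2 of triglyceride synthesis, was lower in VmSC5 (-0.88 ± 0.12, SE).

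The size of the culture response differed between the populations for 3 enzymes (2.87% of all genes). Scd1 gained 1.41 ± 0.28 more on the log2 scale in VmSC5 than in VmSC4 (SE, adjusted p = 0.0161) and Scd2 0.84 ± 0.20 more (adjusted p = 0.0194), while Acss2 gained less (-0.61 ± 0.17, adjusted p = 0.0424). The fresh levels of all 3 differed too: Scd1 and Scd2 started lower and Acss2 higher in VmSC5. The calls were close to the threshold. Leaving out 1 library gave 0 to 3 called enzymes. None was called without cultured VmSC4 replicate 2, where the adjusted p was 0.0697 for Scd1, 0.0803 for Scd2 and 0.0951 for Acss2. Leaving out fresh VmSC5 replicate 2 or 3, or cultured VmSC5 replicate 1 or 3, also ended the Scd1 call (0.0501 to 0.062). The Scd2 call ended without cultured VmSC4 replicate 1 or cultured VmSC5 replicate 1 or 3 (0.0538 to 0.0663). That of Acss2 held only without fresh VmSC4 replicate 1 and ended without any other library (0.0512 to 0.118) and with library totals alone (-0.49, 0.0956).

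In fresh cells 4 enzymes differed between VmSC5 and VmSC4 (18.4% of all genes did). Scd1, Scd2 and Me1 were lower in VmSC5 and Acss2 was higher. Scd1 had 37.5, 36.1 and 40.3 CPM in VmSC5, below all VmSC4 libraries (65.5 to 135 CPM), a log2 difference of -1.17 ± 0.20 (SE, adjusted p = 0.000566). Scd2 had 74.1, 78.7 and 79.6 CPM against 108, 160 and 92.3 CPM (-0.54 ± 0.16, adjusted p = 0.0178). Me1 had 22.0, 21.8 and 16.2 CPM against 34.1, 34.6 and 29.2 CPM (-0.62 ± 0.19, adjusted p = 0.0265), and Acss2 52.1, 48.1 and 49.6 CPM against 44.7, 34.7 and 34.1 CPM (0.49 ± 0.17, adjusted p = 0.0428).

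These 4 were also the enzymes whose libraries did not overlap, beside 32.5% of all genes. The call of Scd1 held in every alternative run. Scd2 was lost without VmSC4 replicate 2 (-0.29, adjusted p = 0.183) and without any 1 VmSC5 library (0.0539 to 0.0617), and with the 2 groups alone (0.0577). Me1 was lost without VmSC4 replicate 1 or 2 or VmSC5 replicate 2 or 3 (0.0509 to 0.15), and Acss2 without VmSC4 replicate 2 or 3 or any 1 VmSC5 library (0.0737 to 0.131). Without a low-count filter both were lost (0.0532 and 0.0616), and Acss2 too with library totals alone (0.40, 0.106). The other 6 had log2 differences between -0.14 and 0.21, among them Fasn at -0.02 ± 0.14. Of 12 tested genes of elongation and desaturation 1 was higher and 4 were lower in VmSC5, among the latter Elovl5 (-0.77 ± 0.15), which elongates polyunsaturated chains.

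After transfer, 1 enzyme differed with the population recovered, and none passed with the population of origin. Between VmSC4-derived VmSC5 and VmSC4-derived VmSC4, Acacb was the 1 enzyme of 10 that passed, as lower (1.77% of all genes passed). It had 6.08, 13.2 and 7.88 CPM against 18.9, 20.3 and 27.2 CPM, separate in every library (-1.21 ± 0.28, SE, adjusted p = 0.0253). The call was lost without VmSC4-derived VmSC4 replicate 2 or 3, or VmSC4-derived VmSC5 replicate 1 or 3 (adjusted p = 0.0829 to 0.135). Between VmSC4-derived VmSC5 and VmSC5-derived VmSC5 0 of 10 passed (1.15% of all genes), and DESeq2 called 0. In edgeR 0 had an unadjusted p under 0.05, beside 1534 of 13947 genes tested. The log2 differences there ran from -0.28 to 0.20.

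Some enzymes differed in transferred cells from fresh cells of the same label. Elovl6, Fasn, Fads2 and Acss2 were lower in both comparisons, Me1 in VmSC4 and Acacb in VmSC5, whereas Scd1 was higher in VmSC5. That made 5 lower in VmSC4 (24.7% of all genes were lower and 46.1% changed), and 5 lower and 1 higher in VmSC5 (22.4% lower, 46.4% changed). Counted in either direction, the 5 and 6 of 10 were near the share of all genes that changed. The median log2 change of the 10 was -0.47 in VmSC4 and -0.69 in VmSC5, beside -0.02 and 0.01 over all genes tested. Elovl6 had 11.6, 12.7 and 6.54 CPM in VmSC4-derived VmSC4 against 38.9, 54.5 and 44.7 CPM in fresh VmSC4, a log2 change of -2.20 ± 0.23 (SE, adjusted p = 4.15e-08). In VmSC5-derived VmSC5 it had 10.7 and 11.4 CPM against 43.7, 43.8 and 30.5 CPM (-1.89 ± 0.26, adjusted p = 1.95e-06). All transferred libraries lay below all fresh ones.

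Fasn was 1.83-fold and 1.93-fold lower and Acss2 1.53-fold and 1.89-fold lower after transfer. The Acss2 call in VmSC4 was lost without fresh VmSC4 replicate 1 (adjusted p = 0.0547). Me1 fell in VmSC4 (-1.57 ± 0.22, adjusted p = 2.78e-06) and had -0.45 ± 0.24 in VmSC5 (adjusted p = 0.121), where it passed without fresh VmSC5 replicate 3 (-0.63, 0.0401). Scd1 had 117 and 116 CPM in VmSC5-derived VmSC5, above the 36.1 to 40.3 CPM of fresh VmSC5 (1.56 ± 0.22, adjusted p = 1.72e-05). In VmSC4 it had 0.37 ± 0.20 (adjusted p = 0.138), and 0.77 (adjusted p = 0.000166) without fresh VmSC4 replicate 1. Without that library Acly passed too (0.56, 0.0125), and Scd2 passed as lower without fresh VmSC4 replicate 3 (-0.41, 0.0444) or VmSC4-derived VmSC4 replicate 2 (-0.47, 0.0324). Srebf1 was lower in both (-0.92 ± 0.13 and -0.88 ± 0.14). Of 11 tested adipocyte program genes 7 were lower after transfer in VmSC4 (median -0.87) and 5 were lower and 1 higher in VmSC5 (median -0.44).

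Other measures moved with transfer. The adipocyte marker sum was 17.6 to 42.6 CPM in VmSC4-derived VmSC4 against 102 to 153 CPM in fresh VmSC4, and 22.0 to 42.0 CPM in VmSC5-derived VmSC5 against 77.2 to 101 CPM in fresh VmSC5. The stromal marker sum was 52122 to 55053 against 28919 to 37533 CPM in VmSC4, and 33689 to 34258 against 29062 to 32686 CPM in VmSC5. Mitochondrial counts were 0.67% to 0.871% against 0.304% to 0.423% in VmSC4, and 0.831% to 1.04% against 0.0722% to 0.167% in VmSC5. Transferred libraries held fewer counts (1967123 to 5044946) than fresh ones (8527769 or more). The part of these in the enzyme values was not tested.

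With Treg, all 10 enzymes fell in VmSC5 cultures, by 1.45-fold (Fads2) to 2.64-fold (Scd1). Of all genes tested 21.0% fell and 43.4% changed. The libraries of all 10 were separate between the groups, beside 26.4% of all genes that were separate and lower. The median log2 change of the 10 was -1.03, beside 0.00 over all genes tested. The desaturase Scd1 and the citrate lyase Acly fell most, and Elovl6 and Fads2 least.

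Acly had 4289, 4100 and 3859 CPM without Treg and 1616, 1655 and 1717 CPM with Treg, a log2 change of -1.28 ± 0.05 (SE, adjusted p = 4.84e-21, edgeR's quasi-likelihood test). Acss2 had 667, 621 and 630 CPM without and 363, 355 and 208 CPM with Treg. The third of these libraries stood apart from the other two, and the log2 change was -1.04 ± 0.24 (adjusted p = 0.0283). The Acss2 call was lost without a low-count filter (adjusted p = 0.0776) and when any library other than that one was left out (0.0527 to 0.0958), each time with a log2 change of -1.01 to -1.17. Me1 had 1342, 1393 and 1374 CPM without and 606, 600 and 694 CPM with Treg (-1.10 ± 0.06, adjusted p = 4.22e-18).

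Of the carboxylases, Acaca went from 642, 655 and 633 to 333, 340 and 385 CPM (-0.86 ± 0.06), and Acacb from 190, 195 and 188 to 86.5, 85.9 and 87.4 CPM (-1.13 ± 0.07). Fasn had 5433, 5058 and 5087 CPM without and 2366, 2477 and 2805 CPM with Treg (-1.01 ± 0.06, adjusted p = 3.38e-16), so its level was 2.01-fold lower. Within each group the 3 libraries of these genes lay close together, far from the other group.

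Scd1 had 17076, 16828 and 17075 CPM without and 6148, 6219 and 6839 CPM with Treg (-1.40 ± 0.05, SE, adjusted p = 1.39e-22). Scd2 had 1408, 1479 and 1504 CPM without and 719, 744 and 794 CPM with Treg (-0.95 ± 0.06). Elovl6 was low throughout, at 19.8, 20.7 and 18.7 CPM without and 11.8, 10.7 and 14.8 CPM with Treg (-0.66 ± 0.15, adjusted p = 0.000537). Fads2 had 174, 166 and 164 CPM without and 120, 117 and 105 CPM with Treg (-0.54 ± 0.07, adjusted p = 2.4e-08).

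Around the pathway, 9 of 15 regulators fell and 1 rose with Treg, 12 of 14 genes of substrate supply fell and 1 rose, and 8 of 15 tested genes of elongation and desaturation fell and 3 rose. Among the regulators that fell were Thrsp (log2 change -1.39 ± 0.06, SE), Srebf1 (-0.58 ± 0.06) and Nr1h3, which encodes a sterol-sensing receptor (-0.44 ± 0.06). Among the genes of substrate supply that fell were Pcx, the pyruvate carboxylase (-0.91 ± 0.05), Slc2a4, the insulin-responsive glucose transporter (-0.96 ± 0.06), and Cs, citrate synthase (-0.82 ± 0.05). All 6 tested genes of mitochondrial fatty acid synthesis fell, with a median of -0.62.

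Of 12 adipocyte program genes 11 fell, with a median of -0.45. They included Cidec, which encodes a lipid droplet protein (-1.44 ± 0.05), Adipoq, adiponectin (-1.32 ± 0.06), and Pparg, the master regulator of fat cells (-0.22 ± 0.08, adjusted p = 0.0206). The adipocyte markers summed to 20655 to 22514 CPM without and 12672 to 14458 CPM with Treg, and the stromal markers to 2414 to 2745 CPM without and 8979 to 9879 CPM with Treg. Mitochondrial counts were 4.13% to 4.42% without and 1.78% to 2.03% with Treg. The part of either marker change in the falls of the enzymes was not tested.

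With OSM, 7 of the 10 enzymes fell in VmSC5 cultures against PBS (23.0% of all genes fell, 45.8% changed). Me1 was 4.32-fold lower and Scd1 3.97-fold lower, and Acaca, Acss2, Fasn and Scd2 were 3.05-fold to 2.22-fold lower. Acacb was 4.50-fold lower, an estimate that rests on at most 5 counts in each OSM library. Acly, Elovl6 and Fads2 did not pass. The median log2 change of the 10 was -1.25, beside 0.00 over all genes. The libraries of 8 were separate between the groups, beside 53.6% of all genes.

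Acly had 587, 572 and 551 CPM with PBS and 464, 519 and 513 CPM with OSM. The OSM libraries lay just below the PBS ones, and the log2 change was -0.09 ± 0.08 (SE, adjusted p = 0.387). With library totals alone it was -0.19 (adjusted p = 0.0486), a scaling that moved the median of all genes to -0.10. Acss2, the other source of acetyl-CoA, had 132, 127 and 94.6 CPM with PBS and 43.3, 32.6 and 57.2 CPM with OSM (-1.28 ± 0.16, adjusted p = 1.4e-08). Me1 had 205, 188 and 175 CPM with PBS and 36.9, 42.9 and 42.1 CPM with OSM (-2.11 ± 0.14, adjusted p = 3.11e-18).

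Acaca had 125, 114 and 127 CPM with PBS and 26.5, 39.2 and 44.0 CPM with OSM (-1.61 ± 0.16, adjusted p = 3.45e-12). Acacb was scarce, at 13.9, 12.5 and 12.8 CPM with PBS and 3.21, 4.66 and 0.657 CPM with OSM, the latter only 4, 5 and 1 counts. Its fall (-2.17 ± 0.48, adjusted p = 0.000192) is therefore the least precise of the 10, and without OSM replicate 3 its log2 change was -1.62. Fasn had 556, 493 and 543 CPM with PBS and 219, 195 and 221 CPM with OSM (-1.22 ± 0.09, adjusted p = 3.36e-16).

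Scd1 had 9486, 8098 and 7663 CPM with PBS and 1554, 2253 and 2111 CPM with OSM (-1.99 ± 0.13, adjusted p = 2.02e-07), and Scd2 fell as well (-1.15 ± 0.10, adjusted p = 1.02e-13). No OSM library of either reached a PBS library. Elovl6 had 37.9, 27.4 and 40.9 CPM with PBS and 18.5, 30.8 and 21.0 CPM with OSM, with overlap (-0.48 ± 0.24, adjusted p = 0.0971). It passed with library totals alone (-0.58, adjusted p = 0.0416), without PBS replicate 2 (-0.67, 0.0392) and without OSM replicate 2 (-0.68, 0.0369). Fads2 had 90.4, 97.7 and 68.2 CPM with PBS and 93.9, 69.0 and 78.8 CPM with OSM (0.00 ± 0.15, adjusted p = 0.991), and the 2 groups covered the same range.

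Beside the enzymes, 8 of 15 regulators fell with OSM and 1 rose, and 12 of 13 tested genes of substrate supply fell and 1 rose. Insig1, whose protein retains SREBP in the endoplasmic reticulum, fell (log2 change -2.46 ± 0.11, SE), as did Srebf1 (-1.77 ± 0.10), Nr1h3 (-1.72 ± 0.15) and Mlxipl (-3.49 ± 0.49). Pcx (-2.88 ± 0.10) and Cs (-1.68 ± 0.08) fell, whereas Slc16a3, a lactate exporter, rose by 4.54 ± 0.16. Of 12 tested genes of elongation and desaturation 6 fell and 1 rose: Elovl5 rose by 1.22 ± 0.11, while Elovl3 (-4.63 ± 0.50) and Hsd17b12, a reductase of the elongation cycle (-1.43 ± 0.10), fell.

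All 12 adipocyte program genes fell with OSM, with a median of -3.65, among them Adipoq (-6.86 ± 0.27) and Pparg (-2.87 ± 0.19). The adipocyte markers summed to 10868 to 12749 CPM with PBS and 945 to 1391 CPM with OSM, with Lep at 0 in both groups, and the stromal markers to 4924 to 5021 CPM with PBS and 14111 to 15195 CPM with OSM. Mitochondrial counts were 2.4% to 2.92% with PBS and 1.53% to 1.64% with OSM. The part of these changes in the falls of the enzymes was not tested.

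**Figure D4:**
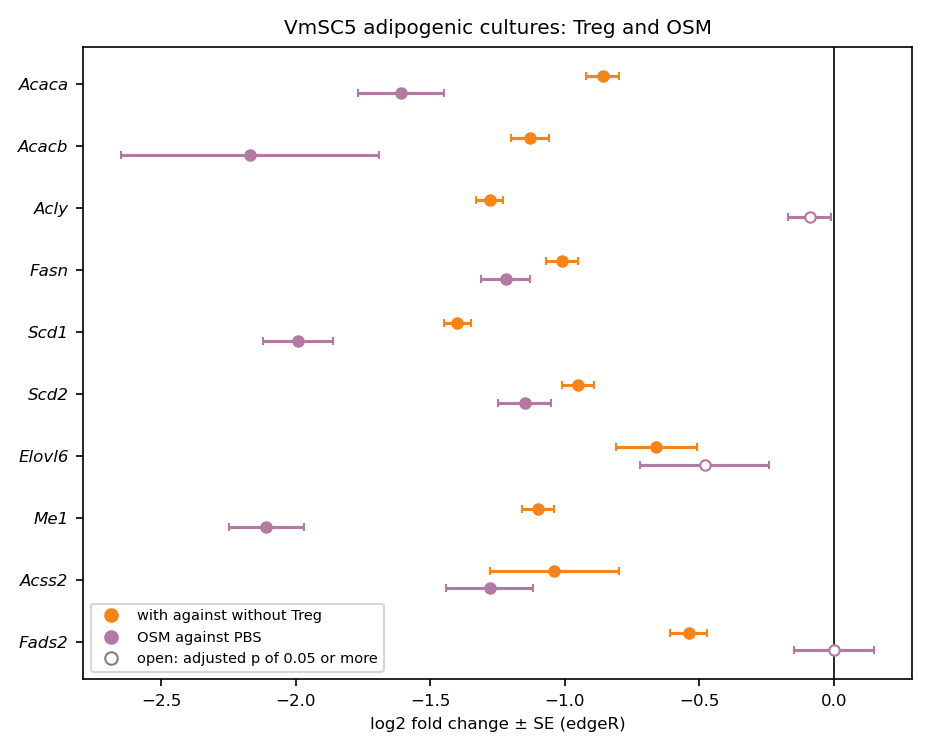
Log2 fold change of each enzyme gene in VmSC5 cultures (x axis), with against without Treg and OSM against PBS, with bars of 1 SE from edgeR; open symbols mark an adjusted p of 0.05 or more. With Treg all 10 lie between -1.40 and -0.54, whereas with OSM they spread from -2.17 (Acacb) to 0.00 (Fads2).

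The 2 responses, which share no library, were set against each other in 1 fit. Of the 10 enzymes 5 differed (32.5% of all genes did). Acly and Fads2, which fell with Treg and did not pass with OSM, had differences of 1.23 ± 0.10 (SE, adjusted p = 1.38e-14) and 0.58 ± 0.16 (adjusted p = 0.00276) on the log2 scale. Me1 (-0.97 ± 0.14, adjusted p = 1.49e-07), Acaca (-0.72 ± 0.16, adjusted p = 0.00028) and Scd1 (-0.55 ± 0.16, adjusted p = 0.0143) fell further with OSM. Fasn (-0.16 ± 0.11, adjusted p = 0.27), Scd2 (-0.16 ± 0.11, 0.304), Elovl6 (0.22 ± 0.28, 0.594), Acss2 (-0.20 ± 0.41, 0.761) and Acacb (-1.03 ± 0.42, 0.0659) did not pass.

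With library totals alone, which moved the median of all genes from 0.03 to -0.10, 8 enzymes passed: Acacb (-1.16, adjusted p = 0.032), Fasn (-0.29, 0.0294) and Scd2 (-0.29, 0.0441) were added. The Scd1 difference was lost without replicate 3 of the cultures without Treg (0.0517). Acacb passed without OSM replicate 2 (-1.55, 0.027) and Acss2 without replicate 3 of the cultures with Treg (-0.41, 0.0451). The adipocyte program differed in 12 of 12 genes, each falling further with OSM, with a median difference of -3.13, beside -0.18 for the 10 enzymes. Srebf1 (-1.15 ± 0.11) and Mlxipl (-2.99 ± 0.45) fell further with OSM. The PBS cultures started from lower levels than those without Treg, for example 493 to 556 against 5058 to 5433 CPM of Fasn, and had lower total counts. The part of the starting level in these differences was not tested.

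In floating cells none of the 10 enzymes passed between DTR+ and DTR- mice (2.43% of all genes did). With edgeR 3 of the 10 had an unadjusted p under 0.05, a cut-off for which the share of all genes is not given here. DESeq2 called 1, Elovl6. With only 2 libraries a group the log2 values had SE of 0.59 to 0.73 and the test had little power, so that 0 called does not show that the enzymes were alike. The libraries of 7 enzymes were separate, beside 51.1% of all genes. Elovl6 had 15.8 and 41.6 CPM in DTR- and 82.1 and 110 CPM in DTR+ cells (2.28 ± 0.66, SE, adjusted p = 0.0755). Scd1 had 15096 and 15654 CPM in DTR- and 6916 and 4470 CPM in DTR+ cells (-1.04 ± 0.66, adjusted p = 0.44), and Scd2 75.5 and 136 CPM against 6.27 and 22.8 CPM (-2.21 ± 0.73, adjusted p = 0.126). Acacb had 123 and 90.5 CPM against 393 and 138 CPM (1.61 ± 0.61, adjusted p = 0.192), and Fasn 4755 and 6286 CPM against 7840 and 6966 CPM (0.88 ± 0.66, adjusted p = 0.508).

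Elovl6, Acacb, Fasn and Me1 were thus higher, and both Scd genes and Fads2 lower, in each DTR+ library, without passing the test. With 2 libraries a group, 51.1% of all genes tested were separate in this way in 1 direction or the other. Acly had 934 and 1839 CPM in DTR- and 2167 and 724 CPM in DTR+ cells, with the 2 DTR+ libraries on either side of the DTR- ones. Elovl6 passed with RLE scaling (adjusted p = 0.0362), without a low-count filter (0.0405) and in DESeq2 (0.0126), and Scd2 without a filter (0.0491). Without DTR+ replicate 2 the log2 changes were 2.75 for Elovl6, 1.16 for Acacb, 1.13 for Fasn, 0.97 for Me1 and -1.41 for Scd2. Acly and Fads2 then changed sign (-0.13 and 0.14). Without DTR+ replicate 3 they were 1.62 for Elovl6, 1.97 for Acacb, 1.14 for Me1 and -3.97 for Scd2. In such a fit the lone DTR+ library is assumed to vary like the DTR- ones, so its calls are not given. None of the lists around the pathway had a called gene.

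Markers of other cells differed in the same libraries. Endothelial markers summed to 375 to 474 CPM in DTR- and 13.9 to 41.4 CPM in DTR+ cells, macrophage markers to 338 to 414 against 99.6 to 146 CPM, and erythrocyte markers to 57.9 to 62.5 against 4.91 to 17.1 CPM. Adipocyte markers summed to 23321 to 26716 against 27461 to 41251 CPM. Their part in the enzyme values was not tested.

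**Figure D5:**
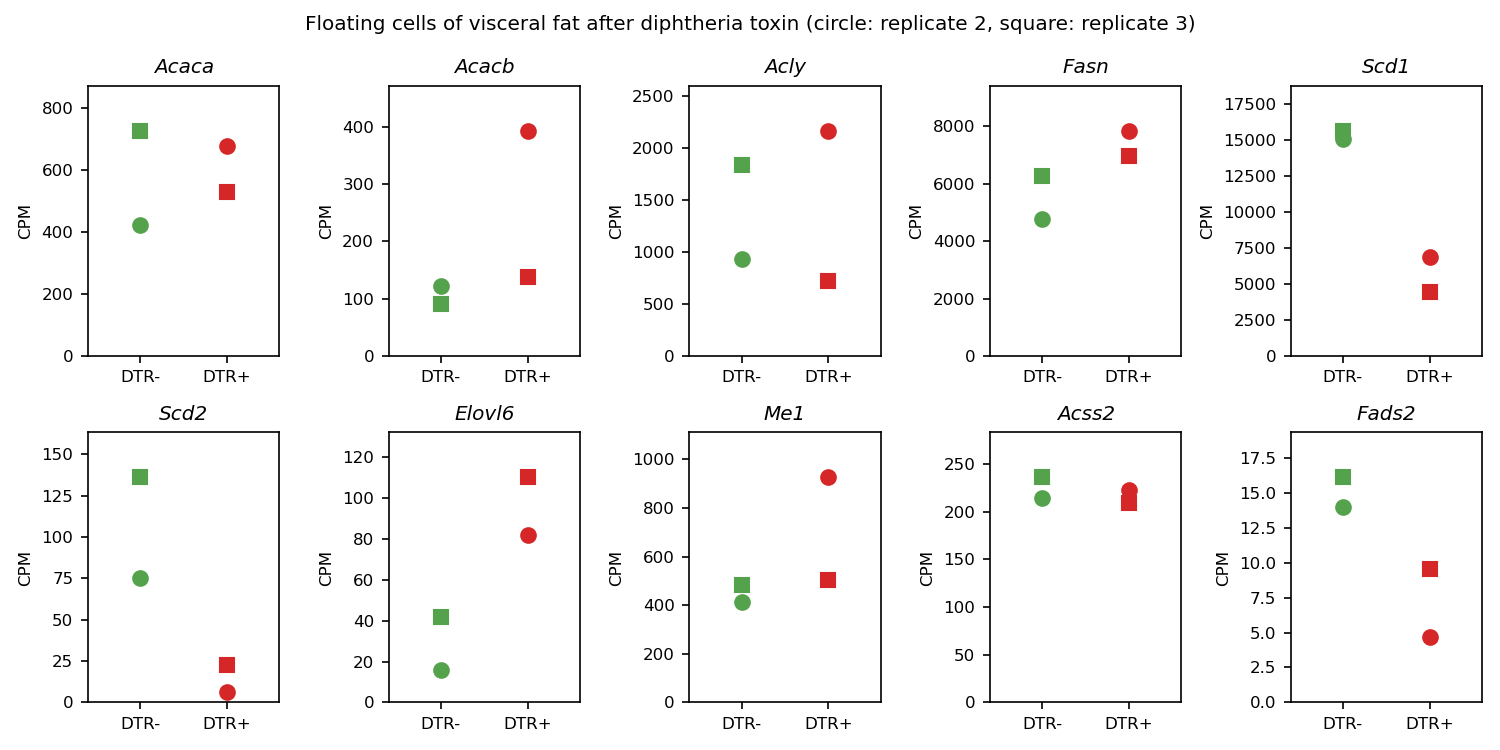
CPM (y axis, linear, from 0) of each enzyme gene in the 4 floating-cell libraries, DTR- and DTR+, by replicate number. Both DTR+ libraries lie above the DTR- ones for Elovl6 (82.1 and 110 CPM) and below them for Scd1 (6916 and 4470 CPM), while Acly is split.

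In the Treg cells the targeted gene, Osm, had 29.1, 28.4 and 34.1 CPM in the WT and 9.83, 14.6 and 7.76 CPM in the KO libraries, lower in each KO library but not absent. The marker Foxp3 had 315, 332 and 294 CPM in the WT and 154, 359 and 316 CPM in the KO libraries, so KO replicate 1 stood below the others. The Treg cells expressed Acly and, at lower levels, Fasn, Acss2, Elovl6 and Scd2, while Me1, Scd1 and Fads2 were nearly absent. Over 3 WT libraries Me1 had 7 counts, Fads2 10 and Scd1 15, and over 3 KO libraries 9, 8 and 12. These 3 were too low to test.

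Of the 7 enzymes tested, 0 passed between KO and WT (0.0526% of all genes did). With edgeR 3 of them had an unadjusted p under 0.05, a cut-off for which the share of all genes is not given here. DESeq2 called 0. Fasn had 112, 136 and 149 CPM in WT and 63.8, 87.6 and 67.8 CPM in KO cells, separate in every library (-0.83 ± 0.21, SE, adjusted p = 0.336), and it passed without a low-count filter (adjusted p = 0.0298). Acly had 404, 397 and 417 CPM in WT and 552, 509 and 475 CPM in KO cells (0.37 ± 0.13, adjusted p = 0.384). Scd2 had 17.3, 20.4 and 30.2 CPM against 12.7, 11.3 and 14.0 CPM (-0.79 ± 0.35, adjusted p = 0.472). With Elovl6 these made 4 enzymes whose libraries did not overlap, beside 16.0% of all genes.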

How the data were processed

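Poly(A) RNA of 42 libraries in 15 groups was measured as gene counts, deposited by the authors as whole numbers in 1 table. Per the submitters' processing notes, reads were aligned to mm10 with STAR 2.7.3a and counted with featureCounts. The annotation release, strand setting and treatment of shared reads are not given in the sources used here. Per the labels' protocols, fresh libraries came from 1000 sorted cells, wells were lysed directly, and floating cells entered as 2 ng of RNA. All columns were used (0 left out). Of the 55011 genes, 52936 symbols were in GENCODE M21, which gave positions and exon lengths.

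Counts were tested with edgeR 4.0.16 (R 4.3.3), by the quasi-likelihood F test with robust dispersions and TMM factors, after edgeR's filter on low genes (minimum count 10). Libraries of 1 experiment shared a fit, and for the contrast of OSM with Treg both experiments shared one. Tests were two-sided, adjusted by Benjamini-Hochberg over all genes tested, and called at an adjusted p under 0.05. The SE is the size of the log2 fold change divided by the square root of F. CPM is the count per 1000000 of the library total, without these factors.

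The members and lists were chosen with earlier results of these data known. The rule for named genes took all members, Srebf1, Mlxipl, Thrsp, Insig1, Pparg and Adipoq where they bear on it, up to 3 called genes per list with the smallest adjusted p, and the 5 genes most alike. Other genes are named only as markers, overlapping neighbours or the targeted gene. Pc and Hsd17b8 were found as Pcx and H2-Ke6 through RefSeq synonyms.

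Other settings tried were DESeq2 1.42.0, RLE scaling, all genes without the filter, a block for replicate number, other groups in the fit, and each library left out in turn. Library totals without scaling factors, and crossed numbers for the floating cells, were chosen after the data were seen, as was the longest transcript as length for the isoenzyme shares. Replicate numbers met the rule for pairing (each of 3 correlations of same-numbered libraries over 0.1) only for cultured VmSC5 and VmSC4, where the correlations were 0.11 to 0.24. The steps were tested on simulated data, where the floating-cell comparison did not recover the genes that had been changed. Totals of 1072147 to 12514783 counts per library limit the precision of low genes.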

Additional observations from a re-analysis of the deposited data

Results flagged for a closer look

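Some enzymes responded by a different amount in 2 settings, by a test of the difference itself. Between VmSC5 and VmSC4, the response to adipogenic culture differed by 1.41 for Scd1, 0.84 for Scd2 and -0.61 for Acss2 on the log2 scale, as VmSC5 minus VmSC4. These calls were close to the threshold, and none held without cultured VmSC4 replicate 2. The fresh levels of these genes differed between the populations too. Between the OSM and the Treg cultures of VmSC5, the response differed by 1.23 for Acly and 0.58 for Fads2, which fell with Treg and did not pass with OSM. It differed by -0.97 for Me1, -0.72 for Acaca and -0.55 for Scd1, which fell further with OSM. The Scd1 call was lost without replicate 3 of the cultures without Treg. The PBS cultures started from other levels than those without Treg, and the part of this was not tested.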

How the results depend on the processing

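Over 1697 recomputed log2 changes of single enzymes, 1564 were counted as keeping their direction and their side of the threshold, 61 lost a call, 34 gained one and 38 changed sign. A value of 0.00 after rounding was not counted as a change of sign. Enzymes with 0.00 in the main fit are therefore not among the 38, though Fads2 with OSM, for example, ran from -0.13 to 0.12. Of the 38, only Fads2 in cultured VmSC5 with library totals alone passed the test after the change of sign (-0.32), and only Fads2 in cultured VmSC4 had been called before it (-0.23 with library totals alone). With no low-count filter, which tests more genes, 2 enzymes in place of 4 were called between fresh populations, 1 in place of 0 between cultured populations, 2 in place of 0 in floating cells and 1 in place of 0 in Treg cells. The fit of the cultured groups alone called 3. In floating cells RLE scaling called 1, DESeq2 1, and a block with crossed replicate numbers, chosen after the data were seen, 2. Library totals alone called 8 in place of 5 for the OSM response minus the Treg response; the cause was not tested. With 1 library left out, the enzymes called were 1 to 3 between fresh populations, 0 to 1 between VmSC4-derived VmSC5 and VmSC4, and 0 to 3 for the difference between culture responses.

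The number of all genes called depended more on the setting. It was 247 between VmSC4-derived VmSC5 and VmSC4, and 450 with no filter, 478 in DESeq2, 893 with the 2 groups alone and 39 to 166 with 1 library left out. Between VmSC4-derived and VmSC5-derived VmSC5 it was 160, and 314, 268, 529 and 31 to 84. Between cultured populations it was 45, and 167, 104, 215 and 17 to 99. For the difference between culture responses it was 379, and 644 with no filter, 620 in DESeq2 and 155 to 661. In floating cells it was 287, and 111 with the replicate block, 509 in DESeq2, 1055 with crossed numbers and 0 with library totals alone. Leaving out 1 library there leaves a lone library in a group, so those counts are not given. In Treg cells it was 6, and 199 with no filter, 50 in DESeq2 and 0 to 586. Library totals alone also moved the split of higher and lower genes, from 4212 and 5095 to 3013 and 7046 for cultured VmSC4, from 4416 and 4973 to 3484 and 6416 for cultured VmSC5, and from 1034 and 1532 to 726 and 1986 for fresh cells. The split moved from 104 and 143 to 66 and 264, and from 73 and 87 to 55 and 119, in the first and second comparison of transferred cells, from 245 and 134 to 383 and 90 for culture responses, and from 1817 and 2124 to 1347 and 2635 for the OSM minus the Treg response.

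The other changes of sign were in enzymes that passed neither test. Between fresh populations Fasn was 0.01 with RLE scaling and 0.02 in DESeq2, and with the replicate block Fasn was 0.02 between VmSC4-derived and VmSC5-derived VmSC5. Fads2 in cultured VmSC5 was -0.02 with no filter. With library totals alone Acaca was 0.06, Acacb 0.02 and Acly 0.05 for the difference between culture responses, and Acss2 was -0.06 in floating cells. With 1 library left out, Acaca ran from -0.26 to 0.14, Acacb from -0.07 to 0.33, Acly from -0.08 to 0.38, Fasn from -0.11 to 0.07 and Elovl6 from -0.25 to 0.04 between fresh populations. Between VmSC4-derived VmSC5 and VmSC4, Fasn ran from -0.26 to 0.04, Elovl6 from -0.03 to 0.36 and Acss2 from -0.24 to 0.07. Between VmSC4-derived and VmSC5-derived VmSC5, Acacb ran from -0.18 to 0.40, Fasn from -0.13 to 0.07, Elovl6 from -0.07 to 0.20 and Me1 from -0.37 to 0.02. Fads2 ran from -0.02 to 0.17 in cultured VmSC5. For the difference between culture responses Acaca ran from -0.27 to 0.15, Acacb from -0.32 to 0.11 and Acly from -0.26 to 0.20. In floating cells Acly ran from -0.13 to 0.86 and Fads2 from -1.59 to 0.14, and in Treg cells Acaca from -0.83 to 0.06, Acacb from -0.86 to 0.02 and Acss2 from -0.26 to 0.11.

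With the replicate block, the pairing of cultured VmSC5 and VmSC4 left 0 enzymes and 53 genes called there. Elsewhere same-numbered libraries did not all correlate above 0.1 (lowest -0.5, in floating cells), so the numbers were not used as pairs. So few correlations cannot show that the libraries were unpaired. In these other comparisons the block ended 2 enzyme calls, Fads2 in cultured VmSC4 (0.32, adjusted p = 0.0505) and Acss2 in the difference between culture responses (-0.61, 0.0573).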
